A study of Mus musculus with 12 samples.

Results

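The 7 genes described here act in acid and bicarbonate handling in mouse bone marrow-derived macrophages. They are the bicarbonate transporters Slc4a2 and Slc4a7, the carbonic anhydrases Car2, Car12 and Car13, and the acid-sensing receptors Gpr65 and Gpr132. They were taken by symbol from the deposited table of read counts, and all 7 were found among its 37620 gene identifiers. The cells were primary C57BL/6 mouse cultures at day 7, held in 1% oxygen (hypoxia) or in ordinary oxygen (normoxia), with 25 mM sodium lactate or, as the salt control, 25 mM NaCl. The 4 groups of 3 libraries are called hypoxia-lactate, hypoxia-NaCl, normoxia-lactate and normoxia-NaCl, and each library carries its group's name and number. Polyadenylated RNA was sequenced, and all groups share the same strain, with no engineered allele named in the labels.

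Cells that burn glucose to lactate release protons with it, and several families keep the cytosol from acidifying. Sodium-proton exchangers and sodium-bicarbonate cotransporters remove acid, anion exchangers remove base, and carbonic anhydrases speed the exchange between carbon dioxide and bicarbonate that feeds the transporters. Proton-sensing G protein-coupled receptors read the pH outside the cell. Macrophages also use this machinery to acidify phagosomes, and their osteoclast relatives use it to dissolve bone.

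All 10 macrophage markers passed the filter on low counts and summed to 33700 to 49500 CPM (read counts relative to library size, scaled by TMM) over the 12 libraries. Most of the sum came from Lyz2 (30900 CPM on average), followed by Csf1r (6640 CPM). The lowest were Mertk (17.3 CPM), Fcgr1 (16.6 CPM) and Mrc1 (12.1 CPM). Reads assigned to genes numbered 22705978 to 49885085 per library. Library hypoxia-lactate 3 stood apart, with 11437 genes of at least 10 counts against 13198 to 14767 elsewhere and a median Spearman correlation of 0.906 with the other libraries against 0.966 to 0.987. In 71.5% of the 14616 tested genes its level lay outside the range of the other 11 libraries. The same held for 4 of the 6 tested members: it was the highest library for Slc4a2 (205 CPM) and Gpr132 (124 CPM) and the lowest for Car13 (2.55 CPM) and Gpr65 (3.20 CPM). Results that rest on it are therefore given with and without it. Nothing in the labels says whether the libraries of a group are separate mice or cultures, so the p-values speak only of the spread between these libraries. In bulk RNA, fewer cells of a type and less RNA per cell cannot be told apart.

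Of the 7 genes 6 passed the filter on low counts, and Car12 did not. In edgeR's quasi-likelihood test over all 12 libraries, with Benjamini-Hochberg adjustment over 14616 genes and a threshold of 0.05, no member passed in any of 8 comparisons. The share of all genes that passed was 0.281% for low oxygen in NaCl medium, 0.226% for low oxygen in lactate medium, 1.61% for low oxygen and lactate together, 1.38% for low oxygen averaged over both media, 0.0342% for lactate averaged over both oxygen levels, and 0% for lactate in normoxia, lactate in low oxygen and the interaction (0 genes by edgeR, where DESeq2 gave 5, 118 and 1, limma-voom 0 in all 3, and unadjusted p-values under 0.05 numbered 227, 1664 and 497). At an unadjusted p under 0.05 the members numbered 2, 1, 3, 3 and 0 in the first 5 of these and 0 in the last 3, where 6.49%, 14.6%, 20.7%, 15.2% and 6.99% of all tested genes were under it in the first 5. With DESeq2 there were 2 called members, Car2 and Slc4a7, for low oxygen and lactate together and for low oxygen averaged over both media, and none elsewhere, where it called 8.57% and 5.46% of all genes, while limma-voom called none in any comparison. Without hypoxia-lactate 3, edgeR called Car2 for low oxygen in NaCl medium, and Car2 and Slc4a7 for both treatments together and for the average over media. The share of all genes called was then 1.79%, 6.86% and 7.59%, and it was 0.862% for low oxygen in lactate medium, where no member was called. For scale, the HIF target Egln3 had a log2 fold change of 4.91 ± 0.25 (SE) for low oxygen in NaCl medium with all libraries (edgeR adjusted p = 1.28e-06).

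Levels between genes were compared per kilobase of exon, with lengths from GENCODE M21 (GRCm38), a different build from the mm9 named for the counts. Slc4a2 had the highest median over the 12 libraries, 27.2 CPM per kb, followed by Gpr132 at 20.3, Slc4a7 at 9.24, Gpr65 at 6.90, Car13 at 6.04, Car2 at 1.23 and Car12 at 0.0135 CPM per kb. Neighbours in this order overlapped in range, except Car2 and Car12, with 20.4 to 44.1 CPM per kb for Slc4a2 and 15.1 to 50.1 for Gpr132. The ranges were 1.55 to 15.4 CPM per kb for Gpr65 and 1.11 to 9.28 for Car13, so these 2 genes were not separated. Car12 lay apart from the rest, at most at 0.125 CPM per kb, while Car2 ranged over 0.501 to 3.92 CPM per kb.

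**Figure D1:**
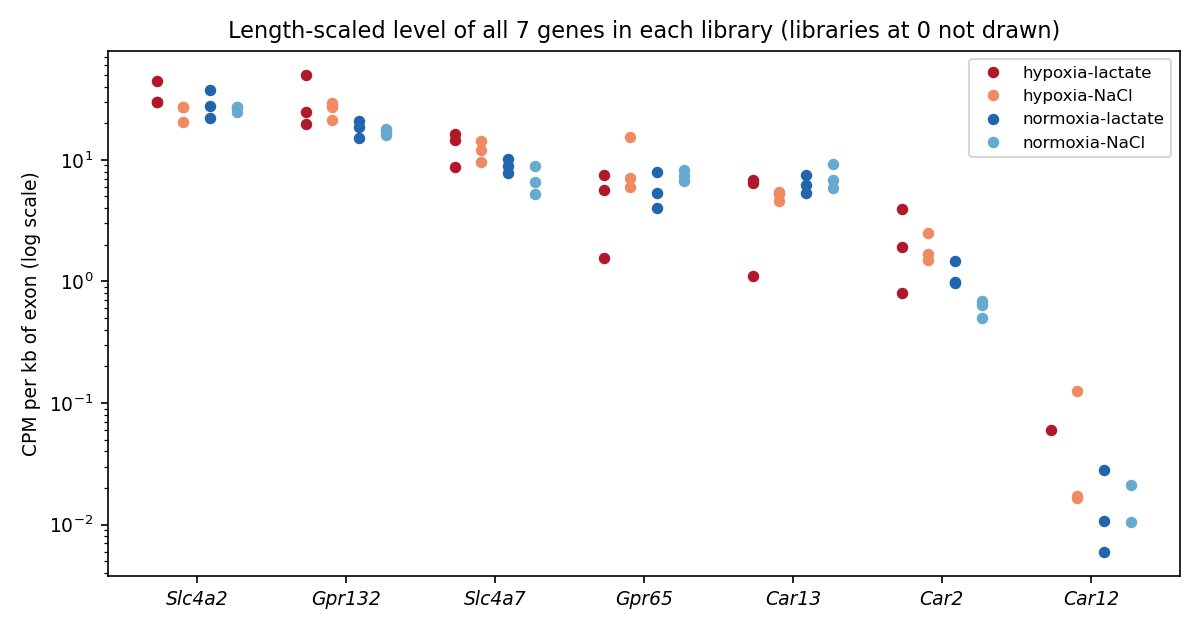
Level of each gene in each library as CPM per kb of exon on a log axis, with genes in falling order of their median and 1 point per library, coloured by group. Slc4a2 and Gpr132 lie between 15.1 and 50.1 CPM per kb, Car2 between 0.501 and 3.92, and Car12 at or under 0.125, with 3 libraries at 0 not drawn.

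Slc4a7 (ENSMUSG00000021733, chromosome 14) encodes NBCn1, an electroneutral cotransporter that brings sodium and bicarbonate into the cell and so removes acid. Its level was 98.7, 116 and 77.5 CPM in the 3 hypoxia-NaCl libraries, against 42.9, 72.7 and 53.2 CPM in normoxia-NaCl, and these groups did not overlap. In lactate medium it was 118, 131 and 70.7 CPM in hypoxia-lactate, against 63.6, 72.2 and 81.8 CPM in normoxia-lactate. The first 2 hypoxia-lactate libraries were above all 6 normoxia libraries, and hypoxia-lactate 3 lay among them. The group means were 97.4 ± 19.3 CPM (SD, n = 3) in hypoxia-NaCl and 56.3 ± 15.1 CPM in normoxia-NaCl (SD, n = 3), a log2 fold change of 0.79 ± 0.27 (SE; edgeR adjusted p = 0.529). In lactate medium the log2 fold change was 0.56 ± 0.26 (edgeR adjusted p = 0.351), and averaged over both media it was 0.67 ± 0.19 (edgeR adjusted p = 0.117). Without hypoxia-lactate 3, Slc4a7 rose by 0.78 ± 0.15 on the log2 scale for the average over media (edgeR adjusted p = 0.00814) and by 1.15 ± 0.22 for low oxygen and lactate together (edgeR adjusted p = 0.00899). Within single media it was then at 0.79 ± 0.20 in NaCl medium (edgeR adjusted p = 0.0677) and 0.78 ± 0.22 in lactate medium (edgeR adjusted p = 0.133), sizes close to each other and short of the threshold. With the replicate block as well, the change in NaCl medium passed (0.80 ± 0.17, edgeR adjusted p = 0.0189), as did that of 5.08% of all genes.

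Slc4a2 (ENSMUSG00000028962, chromosome 5) encodes AE2, an anion exchanger that trades bicarbonate for chloride and so loads the cell with acid, the opposite task. It was 126, 127 and 94.7 CPM in hypoxia-NaCl, against 125, 114 and 126 CPM in normoxia-NaCl. In lactate medium the 3 libraries held 139, 139 and 205 CPM in hypoxia-lactate, against 128, 175 and 103 CPM in normoxia-lactate. Both pairs of groups overlapped. The log2 fold change for low oxygen was -0.07 ± 0.23 in NaCl medium (edgeR adjusted p = 0.998) and 0.25 ± 0.23 in lactate medium (edgeR adjusted p = 0.624; 0.04 ± 0.20 without hypoxia-lactate 3). All 3 hypoxia-lactate libraries lay above all 3 hypoxia-NaCl libraries, by a log2 fold change of 0.48 ± 0.23 (edgeR adjusted p = 0.443) that was 0.27 ± 0.20 without hypoxia-lactate 3. The sign of its low-oxygen change in lactate medium turned in 1 alternative, the replicate block without that library (-0.04). In the GRCm38 annotation its exons overlap Fastk and Gm22333 on the opposite strand. Whether the counting used strand is not stated in the sources read, so reads in the overlap cannot be assigned with certainty.

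Per length, the Slc4a7 level relative to Slc4a2 was 0.448, 0.524 and 0.468 in hypoxia-NaCl, against 0.196, 0.365 and 0.241 in normoxia-NaCl. It was 0.485, 0.540 and 0.197 in hypoxia-lactate, against 0.284, 0.236 and 0.453 in normoxia-lactate. The transcript of the acid-removing transporter was thus the less abundant of the pair in all 12 libraries, and protein was not measured here. The ratio was higher in every hypoxia-NaCl library than in every normoxia-NaCl library, while in lactate medium the groups overlapped. How often such ratios separate was not counted, and the strand limit on the Slc4a2 reads applies to this ratio.

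The start of Slc4a2 is shown because it is the most abundant of the 7 genes, and the start used here is the same base in RefSeq and GENCODE. The window covers 250 bases before and 50 after the start in RefSeq (GRCm38.p6, chr5:24424982-24425281, + strand), written 5′ to 3′. Capitals mark CACGC, which is GCGTG on the other strand, a form of the core letters bound by hypoxia-inducible factor (HIF).
Slc4a2: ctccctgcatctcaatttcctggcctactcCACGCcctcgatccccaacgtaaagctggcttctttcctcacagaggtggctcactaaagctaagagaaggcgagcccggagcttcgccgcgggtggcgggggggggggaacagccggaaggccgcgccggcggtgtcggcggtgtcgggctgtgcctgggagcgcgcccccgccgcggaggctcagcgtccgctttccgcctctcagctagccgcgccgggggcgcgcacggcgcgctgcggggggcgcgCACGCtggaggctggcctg
Among ACGTG and GCGTG (both forms of the HIF core), TGACG (the core of the cyclic AMP response element) and AGGAAG (the core of the macrophage factor PU.1), only GCGTG occurred, at 2 places that do not overlap. Searched on both strands, these letters occur in 19.6%, 32.4%, 20.8% and 35.4% of all 32851 RefSeq windows of 300 bases. A further RefSeq window of Slc4a2 (chr5:24425594-24425893, + strand), with its start 612 bases past the GENCODE start, had no match to any of these letters. RefSeq windows were found for 5 of the 7 genes, with none for Car2 and Car13. The Slc4a7 window lies 16505 bases inside the GENCODE gene and was not used as its promoter.

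Car2 (ENSMUSG00000027562, chromosome 3) encodes the highly active cytosolic carbonic anhydrase that osteoclasts and red cells use in bulk. It held the largest fold change of the 6 tested members for low oxygen in NaCl medium. Its reads were few, at 221, 87 and 94 in hypoxia-NaCl, against 25, 34 and 63 in normoxia-NaCl. As levels these were 4.51, 2.7 and 3.02 CPM in hypoxia-NaCl, against 1.14, 0.895 and 1.23 CPM in normoxia-NaCl, with no overlap. In lactate medium Car2 was 7.02, 3.45 and 1.42 CPM in hypoxia-lactate, against 1.77, 1.72 and 2.62 CPM in normoxia-lactate. Hypoxia-lactate 3, with 24 reads, lay under all normoxia-lactate libraries, and the other 2 lay above them. The means were 3.41 ± 0.963 CPM (SD, n = 3) in hypoxia-NaCl and 1.09 ± 0.174 CPM (SD, n = 3) in normoxia-NaCl, a log2 fold change of 1.64 ± 0.54 (SE; edgeR adjusted p = 0.519).

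With all libraries the Car2 log2 fold change was 0.97 ± 0.53 for low oxygen in lactate medium (edgeR adjusted p = 0.406), 1.31 ± 0.38 averaged over media (edgeR adjusted p = 0.132) and 1.87 ± 0.55 for both treatments together (edgeR adjusted p = 0.0991). Without hypoxia-lactate 3, Car2 rose by 1.64 ± 0.36 in NaCl medium (edgeR adjusted p = 0.0415), by 1.5 ± 0.26 averaged over media (edgeR adjusted p = 0.00522) and by 2.26 ± 0.39 for both together (edgeR adjusted p = 0.00612). In lactate medium it was then at 1.36 ± 0.38 (edgeR adjusted p = 0.134), but at 0.27 ± 0.52 when hypoxia-lactate 1 was left out instead, so its size there rests on single libraries. Hypoxia-lactate 3 is in neither NaCl group, and the NaCl fold change was the same with and without it. It does enter the shared estimate of spread: the common coefficient of variation was 38.2% with hypoxia-lactate 3 and 24.3% without. The 5 remaining low-oxygen libraries all had more Car2 than any of the 6 normoxia libraries, and it was the 1 member so separated, where 6.28% of all tested genes were. With all 12 libraries no member was separated in this way, where 3.68% of all genes were. When normoxia-NaCl 1 was left out as well, the NaCl change of Car2 was 1.67 ± 0.41 and no longer passed (edgeR adjusted p = 0.0824), with 1.23% of all genes called. Lactate alone gave 1.77, 1.72 and 2.62 CPM in normoxia-lactate, all above the 3 normoxia-NaCl libraries, a log2 fold change of 0.90 ± 0.54 that did not pass (edgeR adjusted p = 1).

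Car13 (ENSMUSG00000027555, chromosome 3) encodes another cytosolic carbonic anhydrase. Its level was 12.1, 10.6 and 12.5 CPM in hypoxia-NaCl, against 21.3, 15.7 and 13.6 CPM in normoxia-NaCl, lower in every hypoxia-NaCl library. It was 14.9, 15.7 and 2.55 CPM in hypoxia-lactate, against 14.2, 12.3 and 17.1 CPM in normoxia-lactate, where the first 2 hypoxia-lactate libraries were inside the normoxia-lactate range and hypoxia-lactate 3 far under it. The log2 fold change for low oxygen in NaCl medium was -0.52 ± 0.49 (edgeR adjusted p = 0.967; -0.52 ± 0.20 and 0.193 without hypoxia-lactate 3). In lactate medium it was -0.39 ± 0.49 (edgeR adjusted p = 0.73), and 0.07 ± 0.22 without hypoxia-lactate 3, so that its sign rested on 1 library.

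Because the pair share a compartment, the Car2 share of Car2 plus Car13 was computed from counts per kilobase in each library. It was 37.8%, 22% and 41.8% in hypoxia-lactate, against 13.8%, 15.3% and 16.5% in normoxia-lactate. In NaCl medium it was 32.3%, 24.8% and 23.7% in hypoxia-NaCl, against 6.44%, 6.84% and 10.5% in normoxia-NaCl. All 6 low-oxygen libraries were above all 6 normoxia libraries. In hypoxia-lactate 3 the share rests on 24 Car2 and 43 Car13 reads: its Car13 level was the lowest of the 12, while its Car2 level (1.42 CPM) lay inside the normoxia range. Every normoxia-lactate library was above every normoxia-NaCl library. Car13 still made up more than Car2 in all 12. The mean share was 33.9% ± 10.4 in hypoxia-lactate, 26.9% ± 4.72 in hypoxia-NaCl, 15.2% ± 1.34 in normoxia-lactate and 7.92% ± 2.22 in normoxia-NaCl (SD, n = 3 each). As a measure built from genes picked with results known, it was not tested. How often a ratio of 2 genes separates all low-oxygen from all normoxia libraries was not counted. Among single tested genes 3.68% were so separated, and 0 of the 6 tested members.

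**Figure D2:**
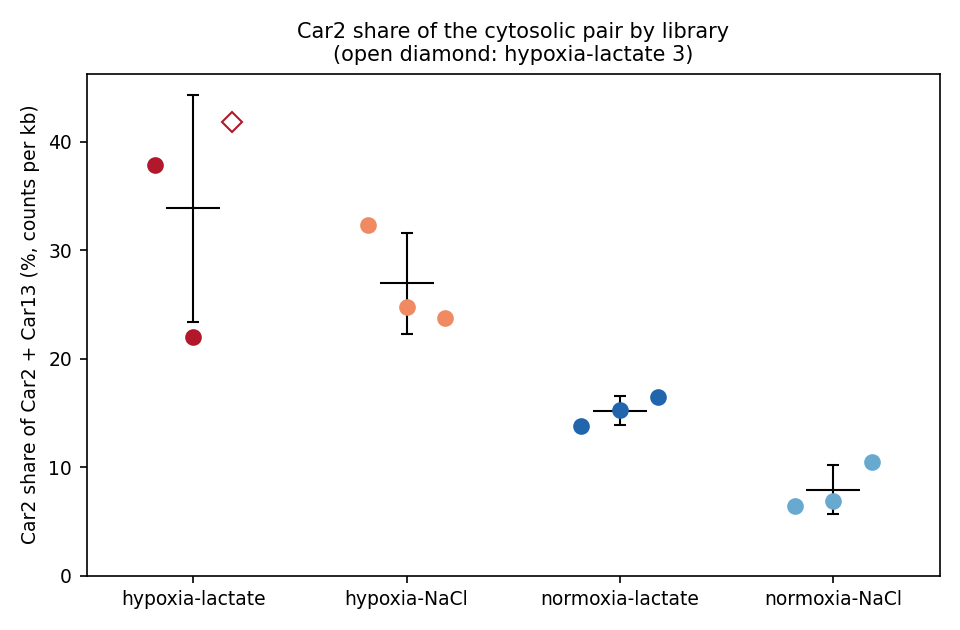
Car2 as a percentage of Car2 plus Car13, in counts per kb of exon, for each library by group; the bar is the mean and the whisker 1 SD over 3 libraries. The 6 low-oxygen libraries sit at 22% to 41.8% and the 6 normoxia libraries at 6.44% to 16.5%.

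Car12 (ENSMUSG00000032373, chromosome 9) encodes a carbonic anhydrase anchored in the plasma membrane with its active site outside the cell. It gathered 0, 6 and 0 reads in hypoxia-lactate, 3, 15 and 2 in hypoxia-NaCl, 5, 2 and 1 in normoxia-lactate and 0, 3 and 2 in normoxia-NaCl. A count of 0 allows a level of up to 0.103 to 0.178 CPM in the 3 libraries concerned (a limit of 3 counts, for counting error only). Only 3 of the 12 libraries had more than 3 reads, and 15 of the 39 reads in all came from hypoxia-NaCl 2. No difference between conditions was detectable at this depth.

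Gpr132 (ENSMUSG00000021298, chromosome 12) encodes a receptor of the proton-sensing family that has also been described in macrophages as a sensor of lactate. It was 66.9, 52.7 and 72 CPM in hypoxia-NaCl, against 44, 39.3 and 43.8 CPM in normoxia-NaCl, with no overlap. In lactate medium the values were 61, 48.4 and 124 CPM in hypoxia-lactate, against 52.1, 37.4 and 46.3 CPM in normoxia-lactate. There hypoxia-lactate 2 lay inside the normoxia-lactate range, hypoxia-lactate 1 above it, and hypoxia-lactate 3 at the top of all 12. The log2 fold change for low oxygen was 0.59 ± 0.30 in NaCl medium (edgeR adjusted p = 0.804) and 0.78 ± 0.30 in lactate medium (edgeR adjusted p = 0.288). Without hypoxia-lactate 3 these were 0.59 ± 0.17 (edgeR adjusted p = 0.0938) and 0.27 ± 0.18 (edgeR adjusted p = 0.545). Averaged over media Gpr132 was at 0.69 ± 0.21 with all libraries (edgeR adjusted p = 0.157) and 0.43 ± 0.12 without that one (edgeR adjusted p = 0.051). For low oxygen in NaCl medium, same-numbered libraries deviated with correlations of 0.149 to 0.38. With the replicate block and without hypoxia-lactate 3, the Gpr132 change of 0.58 ± 0.13 there passed (edgeR adjusted p = 0.0217), as did that of 5.08% of all genes. The replicate block with all libraries called no member.

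Lactate in normoxia left Gpr132 at 52.1, 37.4 and 46.3 CPM in normoxia-lactate, against 44, 39.3 and 43.8 CPM in normoxia-NaCl, overlapping groups with a log2 fold change of 0.10 ± 0.30 (edgeR adjusted p = 1). In low oxygen the lactate change was 0.29 ± 0.30 (edgeR adjusted p = 0.712) and turned to -0.22 ± 0.18 without hypoxia-lactate 3. Neither setting gave this receptor a called change with lactate.

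Gpr65 (ENSMUSG00000021886, chromosome 12) encodes TDAG8, a proton-sensing receptor that raises cyclic AMP when the medium is acid. Its values were 14.8, 12.4 and 31.8 CPM in hypoxia-NaCl, against 17.2, 15.1 and 13.8 CPM in normoxia-NaCl, and 15.4, 11.7 and 3.2 CPM in hypoxia-lactate, against 10.9, 8.24 and 16.5 CPM in normoxia-lactate. One library in each low-oxygen group lay far from its fellows, hypoxia-NaCl 3 as the highest of the 12 and hypoxia-lactate 3 as the lowest. The log2 fold change for low oxygen was 0.36 ± 0.50 in NaCl medium (edgeR adjusted p = 0.988) and -0.23 ± 0.51 in lactate medium (edgeR adjusted p = 0.853). Without hypoxia-NaCl 3 the first was -0.17, and without hypoxia-lactate 3 the second was 0.18, so both signs turned with a single library. For lactate the log2 fold change was -0.95 ± 0.51 in low oxygen (edgeR adjusted p = 0.474; -0.53 ± 0.38 without hypoxia-lactate 3) and -0.37 ± 0.51 in normoxia (edgeR adjusted p = 1). It was below 0 in both and passed in neither.

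Both receptor genes lie on chromosome 12, and their starts are printed to set the pair side by side, since Gpr132 was above Gpr65 per length in all 12 libraries, by 1.89 to 3.97 times in 11 of them and 32.4 times in hypoxia-lactate 3. The RefSeq windows (GRCm38.p6) are chr12:112860867-112861166, - strand, and chr12:98268385-98268684, + strand. Capitals mark AGGAAG in both (as CTTCCT on the strand shown) and, in Gpr132, TGACG and GCGTG.
Gpr132: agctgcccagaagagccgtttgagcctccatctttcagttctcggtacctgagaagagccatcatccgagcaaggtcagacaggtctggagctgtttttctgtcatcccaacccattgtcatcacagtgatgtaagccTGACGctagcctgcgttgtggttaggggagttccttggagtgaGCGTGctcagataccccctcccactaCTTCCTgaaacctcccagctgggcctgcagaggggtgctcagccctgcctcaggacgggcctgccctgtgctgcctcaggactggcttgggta
Gpr65: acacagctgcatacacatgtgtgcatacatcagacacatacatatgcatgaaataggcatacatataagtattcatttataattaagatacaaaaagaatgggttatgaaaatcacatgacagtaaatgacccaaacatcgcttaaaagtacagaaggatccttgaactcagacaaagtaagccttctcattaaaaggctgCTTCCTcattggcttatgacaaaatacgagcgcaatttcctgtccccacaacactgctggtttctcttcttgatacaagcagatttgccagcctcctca
ACGTG occurred in neither. The matches in Gpr132 do not overlap one another, and a match of this length is common enough that it describes the letters only.

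**Figure D3:**
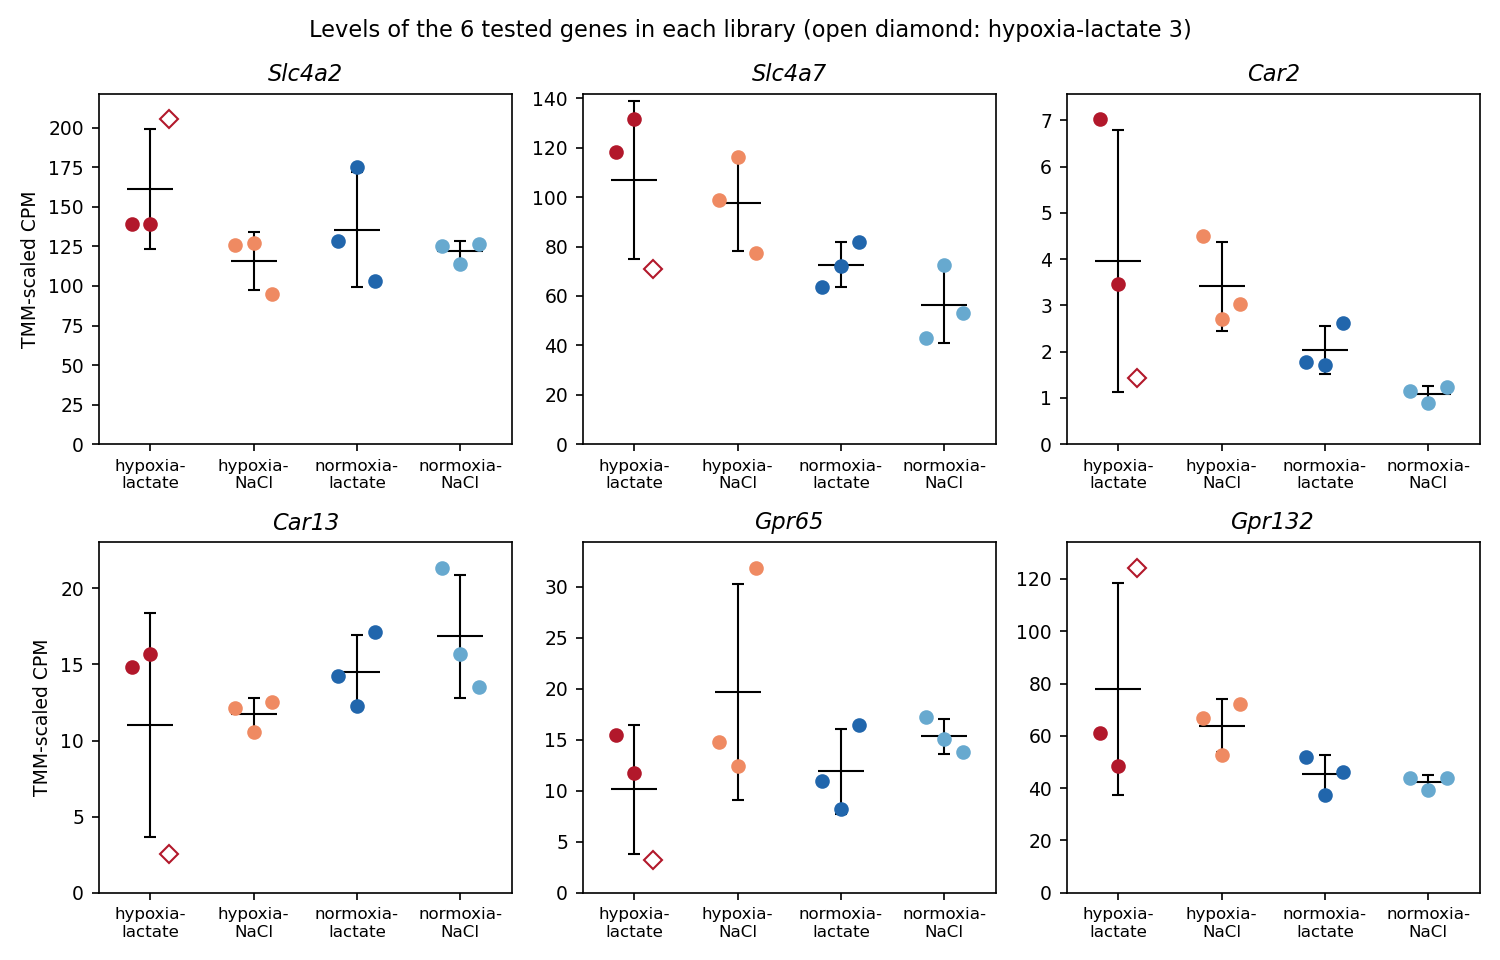
TMM-scaled CPM of the 6 tested genes in each library by group, with linear axes from 0; bars are means and whiskers 1 SD over 3 libraries, and the open diamond is hypoxia-lactate 3. That library is the highest for Slc4a2 (205 CPM) and Gpr132 (124 CPM) and the lowest for Car13 (2.55 CPM) and Gpr65 (3.20 CPM).

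Counting genes whose groups did not overlap, 4 of the 6 tested members were separated for low oxygen in NaCl medium, Slc4a7, Car2 and Gpr132 higher and Car13 lower, where 24.7% of all tested genes were. For low oxygen in lactate medium it was 0 of 6, where 19.6% of all genes were separated. For both treatments together it was 3 of 6, Slc4a2, Car2 and Gpr132, all higher, against 20.6%. For lactate in normoxia it was 1 of 6, Car2, against 11.8%, and for lactate in low oxygen 1 of 6, Slc4a2, against 16%. These comparisons share groups and are not independent of each other. The members were also chosen with earlier results of these data known, so the values of all genes are given for scale only. The median log2 fold change of the 6 was 0.48 for low oxygen in NaCl medium and 0.40 in lactate medium, where all tested genes had medians of 0.01 and -0.03. Without hypoxia-lactate 3 the medians of the 6 were 0.47 and 0.23, and those of all genes 0.01 and -0.01. Without hypoxia-NaCl 3 the median of the 6 in NaCl medium was 0.28.

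**Figure D4:**
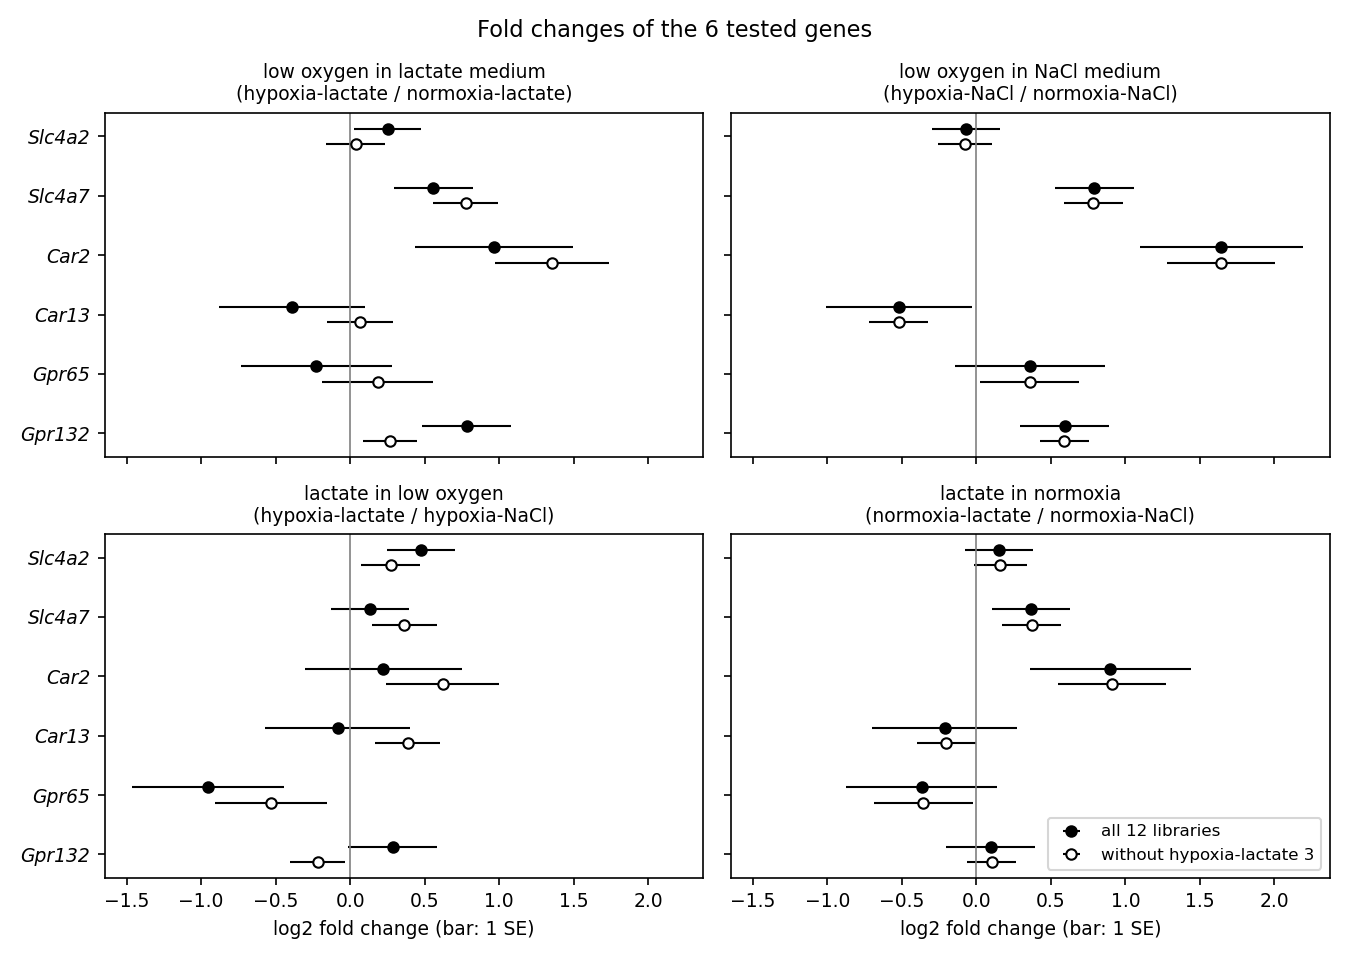
Log2 fold changes of the 6 tested genes in the 4 comparisons of a single factor, with 1 SE, from edgeR with all 12 libraries (filled) and without hypoxia-lactate 3 (open). Slc4a7 and Car2 lie to the right of 0 for low oxygen in both media (0.79 and 1.64 in NaCl medium), and the Car13 and Gpr65 points cross 0 in lactate medium when that library is left out.

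The difference between the responses was tested as an interaction of oxygen and lactate. No member passed (edgeR adjusted p = 0.902 to 0.975 over the 6), nor did any other tested gene in edgeR. With all libraries the interaction was -0.68 ± 0.75 on the log2 scale for Car2, -0.59 ± 0.71 for Gpr65, 0.19 ± 0.42 for Gpr132 and 0.13 ± 0.69 for Car13. Without hypoxia-lactate 3 these were -0.29 ± 0.52 for Car2, -0.17 ± 0.50 for Gpr65, -0.32 ± 0.25 for Gpr132 and 0.59 ± 0.29 for Car13, so sizes and order turned on that library, and again none passed (edgeR adjusted p = 0.998 to 1). For Slc4a2 the interaction was 0.32 ± 0.32 with all libraries and 0.11 ± 0.27 without hypoxia-lactate 3. For Slc4a7 the values were -0.23 ± 0.37 and -0.0088 ± 0.30. An oxygen effect that depends on lactate was not detectable for these genes at this spread.

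Averaged over oxygen levels, the lactate change was 0.56 ± 0.38 for Car2, 0.32 ± 0.16 for Slc4a2, 0.25 ± 0.19 for Slc4a7, 0.19 ± 0.21 for Gpr132, -0.15 ± 0.34 for Car13 and -0.66 ± 0.36 for Gpr65 on the log2 scale (edgeR adjusted p = 0.707 to 0.946). None passed without hypoxia-lactate 3 either, where Car2 was at 0.76 ± 0.26 (edgeR adjusted p = 0.241) and Slc4a7 at 0.37 ± 0.15 (edgeR adjusted p = 0.328). Slc4a2 was then at 0.22 ± 0.13 and Gpr65 at -0.44 ± 0.25, while Gpr132 turned to -0.06 ± 0.12 and Car13 to 0.09 ± 0.15.

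The rest of each family was read from lists. Of 10 SLC4 bicarbonate transporters, 6 were tested, and with all libraries none passed in any comparison. Without hypoxia-lactate 3, Slc4a7 was joined for low oxygen averaged over media by Slc4a4, a sodium-bicarbonate cotransporter, at 2.75 ± 0.57 (edgeR adjusted p = 0.0134). Slc4a4 averaged 0.226 CPM, with 2 libraries at 0, so its fold change rests on few reads. Of 11 sodium-proton exchangers 9 were tested and none passed with all libraries. Without hypoxia-lactate 3 the organelle exchangers Slc9a7 (-0.77 ± 0.17, edgeR adjusted p = 0.0196) and Slc9a9 (-1.29 ± 0.34, edgeR adjusted p = 0.0395) fell for both treatments together.

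Of 16 carbonic anhydrases, 6 were tested with all libraries (Car2, Car13, Car5b, Car7, Car9 and Car11) and 7 without hypoxia-lactate 3. None passed with all libraries. Car5b, the mitochondrial form, was the most abundant by reads (32.1 CPM on average) and rose for both treatments together without hypoxia-lactate 3 (1.12 ± 0.26, edgeR adjusted p = 0.0253). Car1, Car3, Car4 and Car14 had no read in any library. Of 4 proton-sensing receptors 3 were tested, and none passed in any comparison with or without that library.

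Of 18 subunits of the vacuolar proton pump, all tested, none passed with all libraries. Without hypoxia-lactate 3, Tcirg1, which encodes a membrane subunit of the pump, fell for low oxygen averaged over media (-0.43 ± 0.11, edgeR adjusted p = 0.0362), and Atp6v0c, the proteolipid subunit, fell for both treatments together (-0.74 ± 0.20, edgeR adjusted p = 0.0419). Among proton channels and acid-gated channels 2 of 8 were tested and neither passed with all libraries. Tmem206, an acid-activated chloride channel, fell for both together without hypoxia-lactate 3 (-0.79 ± 0.20, edgeR adjusted p = 0.0335). Of 19 genes of cyclic AMP signalling and response, the pathway of Gpr65, 17 were tested and none passed in any comparison with or without that library. In the 10 HIF targets used as a check, 9 rose in NaCl medium and 10 in lactate medium with all libraries, with medians of 2.26 and 2.28 on the log2 scale.

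Car2 is also a gene of osteoclasts and red cells, so markers of both were read beside it. Of 12 erythroid markers 4 had no read in any library, and together they summed to 0 to 1.28 CPM in hypoxia-lactate, 0.469 to 1.27 CPM in hypoxia-NaCl, 0.956 to 3.68 CPM in normoxia-lactate and 0.45 to 2.34 CPM in normoxia-NaCl. These ranges overlap, and their part in the Car2 levels was not tested. The 10 osteoclast markers summed to 460 to 873 CPM in hypoxia-lactate, 358 to 575 CPM in hypoxia-NaCl, 348 to 579 CPM in normoxia-lactate and 302 to 551 CPM in normoxia-NaCl. Of 8 tested osteoclast markers 1 passed, Ctsk, a protease that macrophages also make, which rose for low oxygen averaged over media (1.38 ± 0.22, edgeR adjusted p = 0.00735). The osteoclast sums overlap between the groups as well. Calcr, the calcitonin receptor that defines mature osteoclasts, had no read in any library. Lymphocyte markers, read because lymphocytes also carry these receptors, summed to 2.19 to 8.84 CPM over all libraries, and 1 of 3 tested, Klrb1c, rose for both treatments together (2.64 ± 0.54, edgeR adjusted p = 0.0315). Neutrophil markers summed to 166 to 244 CPM in hypoxia-lactate, 127 to 202 CPM in hypoxia-NaCl, 77.8 to 164 CPM in normoxia-lactate and 68.8 to 178 CPM in normoxia-NaCl, mostly from Mmp8 (132 CPM on average), and their part in the results was not tested. Without hypoxia-lactate 3, Cxcr2 (1.07 ± 0.29, edgeR adjusted p = 0.0424) and Mmp8 (0.67 ± 0.19, edgeR adjusted p = 0.0475) rose for low oxygen averaged over media, while 4 of the 10 tested had positive changes and the median was -0.31. With all libraries none of 9 passed, 3 were positive and the median was -0.62. Among the macrophage markers Cd14 (0.82 ± 0.17, edgeR adjusted p = 0.036) and Mrc1 (-1.52 ± 0.31, edgeR adjusted p = 0.0353) passed with all libraries for the same comparison. Fibroblast markers summed to 29 to 108 CPM, dendritic cell markers to 0 to 4.69 CPM (1 of them, Itgae, was called higher for both treatments together without hypoxia-lactate 3) and mast cell and basophil markers to 0.289 to 4.21 CPM over the 12 libraries.

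For each tested member the genes with the nearest pattern were found by the mean absolute difference in log2 CPM over the 12 libraries, after each gene's own mean was subtracted, among genes of at least 5 CPM on average. Slc4a7 was nearest to Idh1 (0.0919) and Rc3h1 (0.109), where the median gene differed by 0.484. Car2 was nearest to Flrt3 (0.243) and Folr2 (0.266), with a median of 0.656. Gpr132 was nearest to Atf3 (0.109) and Frmd4b (0.121), with a median of 0.416, and Gpr65 to Ly96 (0.171) and Acat1 (0.192), with a median of 0.532. Car13 was nearest to Idh3a (0.124) and Dpy30 (0.125), with a median of 0.475, and Slc4a2 to Zfp335 (0.0788) and Furin (0.0878), with a median of 0.333. Without hypoxia-lactate 3 the same pairs differed by 0.0809 to 0.243.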

How the data were processed

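RNA of 12 libraries (4 groups of 3, grouped by the sample titles) was analysed. The deposited table holds unnormalized read counts for each Ensembl identifier, with a column for every library. BWA, HTSeq and mm9 are named in the submitters' processing notes, with no version. Annotation release and strand setting are not given in the sources used. Per the labels' protocols, poly(A) RNA went through an Ion Total RNA-Seq kit with PCR and was read on an Ion Proton. The 5 counters that name no gene held 31.7% to 37.4% of each library's reads and stayed out of totals and tests.

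Counts were fitted with edgeR 4.0.16 (R 4.3.3; quasi-likelihood F test, TMM scaling, filterByExpr) to the 12 libraries in 1 model with 4 group means, and p-values were adjusted by the Benjamini-Hochberg method over 14616 genes, with a threshold of 0.05. Each SE was obtained by dividing the absolute log2 change by the root of F. CPM is TMM-scaled. Lengths came from GENCODE M21 basic exons, and promoter windows from RefSeq (GRCm38.p6). Of 169 names on the lists, 3 had no identifier.

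Members, lists and tests were chosen with earlier results of these data known. Every member is named. From the lists, called genes are named, at most 3 per list and comparison, and the tested carbonic anhydrases and the genes without reads are named beside them after their values were seen. Likeness used log2(CPM + 0.5), over genes with a mean of at least 5 CPM, excluding clone, predicted-gene and pseudogene names. Alternatives were RLE and upper-quartile factors, no filter, a filter at 5 CPM, DESeq2 1.42.0, limma-voom (limma 3.58.1) with and without sample quality weights, the replicate block, only the groups compared, each library left out, and 2 combinations. For low oxygen in NaCl medium, libraries with equal numbers deviated together, with correlations of 0.149 to 0.38, above the limit of 0.1. The library numbers were therefore read as a possible pairing there, but the edgeR fit described above used group means without a replicate block. The block was fitted only among the alternatives, and is named where its values are given. The fitting code was tested on simulated data.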

Additional observations from a re-analysis of the deposited data

How the results depend on the processing

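The 42 member results (6 genes, 7 comparisons) gave 947 values over 23 alternatives: 872 kept direction and side of the threshold, 33 passed where the reported value did not, and 42 changed sign, none of them past the threshold. For low oxygen in NaCl medium, where no member was called, 2 were called with quality weights, 3 with the replicate block without hypoxia-lactate 3, and 0 to 1 with each library left out, where 3.59% of all genes were called with the weights and 5.08% with that block. For low oxygen in lactate medium 2 were called with quality weights and 1 without hypoxia-lactate 3 and normoxia-NaCl 1 (5.04% and 2.49% of all genes). For both treatments together 2 were called with DESeq2, quality weights, the block without hypoxia-lactate 3, and without both libraries. In these 4 settings 8.57%, 7.38%, 14% and 5.98% of all genes were called. With each library left out 0 to 2 members were called. Without hypoxia-lactate 2 it was Gpr132 alone, at a log2 fold change of 1.13, where 4.6% of all genes were called. Without hypoxia-lactate 3 the Gpr132 change was 0.37 and was not called. For low oxygen averaged over media 2 were called with DESeq2, 3 with quality weights, the block without hypoxia-lactate 3, and without both libraries, and 0 to 2 with each library left out, where 5.46%, 15.1%, 14.7% and 8.94% of all genes were called in the first 4. The replicate block alone called no member in any comparison, and for low oxygen in NaCl medium 41 genes in all, as many as without it. Elsewhere the lowest correlation between libraries of equal number was -0.0696 to 0.0465, per comparison, so the block there rests on a number only.

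Sign changes with quality weights were Gpr132 (-0.17) and Car13 (0.35) for lactate in low oxygen, Car13 (0.0662) and Gpr65 (0.27) for low oxygen in lactate medium, and Car13 for both together (0.0184) and for lactate averaged (0.15). With the block without hypoxia-lactate 3 they were Slc4a2 (-0.0371), Car13 (0.0922) and Gpr65 (0.44) for low oxygen in lactate medium, Gpr132 (-0.17) and Car13 (0.41) for lactate in low oxygen, Gpr132 (-0.0386) and Car13 (0.10) for lactate averaged, and Slc4a2 (-0.0674) for low oxygen averaged. Without hypoxia-lactate 3 and normoxia-NaCl 1 they were Gpr132 (-0.22) and Car13 (0.38) for lactate in low oxygen, Car13 (0.0667) and Gpr65 (0.19) for low oxygen in lactate medium, Gpr132 (-0.0482) and Car13 (0.19) for lactate averaged, Car13 (0.0602) for both together and Slc4a2 (-0.0119) for low oxygen averaged. For low oxygen averaged, Gpr65 was -0.0306 with limma-voom and Slc4a2 -0.0049 with upper-quartile factors. The cause of these changes was not tested.

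With each library left out in turn, changes that crossed 0, and that of Car13 for both treatments together, which did not, ranged as follows. Low oxygen in NaCl medium gave -0.17 to 0.59 for Gpr65 and -0.16 to 0.0530 for Slc4a2. Low oxygen in lactate medium gave -0.73 to 0.0667 for Car13 and -0.67 to 0.18 for Gpr65. Lactate in normoxia gave -0.0182 to 0.23 for Gpr132 and -0.0575 to 0.32 for Slc4a2. Lactate in low oxygen gave -0.0278 to 0.36 for Slc4a7, -0.47 to 0.62 for Car2, -0.41 to 0.39 for Car13 and -0.22 to 0.55 for Gpr132. Both treatments together gave -0.94 to -0.13 for Car13. Low oxygen averaged gave -0.0192 to 0.19 for Slc4a2 and -0.20 to 0.27 for Gpr65 (0.31 with hypoxia-lactate 3 and normoxia-NaCl 1 both left out), and lactate averaged gave -0.31 to 0.0925 for Car13 and -0.0564 to 0.32 for Gpr132. The filter at 5 CPM removed Car2, which could then not be tested. Over all genes, the 41, 33, 235 and 201 calls for low oxygen in NaCl medium, in lactate medium, with lactate and averaged were 148, 427, 1348 and 812 with DESeq2, 525, 737, 1078 and 2210 with quality weights, and 767, 261, 2116 and 2211 with the block without hypoxia-lactate 3. The Car2 change for low oxygen in lactate medium was 0.27 to 1.36 with each library left out. Car2, with 24 to 221 reads per library, is the tested member that depth limits most.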

Other observations

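Car9, a membrane carbonic anhydrase widely used as a marker of hypoxia in tumour cells, was not among the 7 genes and was chosen after its values were seen. It averaged 3.11 ± 0.971 CPM in hypoxia-NaCl and 6.05 ± 0.551 CPM in normoxia-NaCl (SD, n = 3 each). Every hypoxia-NaCl library was under every normoxia-NaCl library, where 24.7% of all tested genes were separated in either direction. In lactate medium the groups overlapped, at 0.712 to 4.47 CPM in hypoxia-lactate and 3.62 to 4 CPM in normoxia-lactate. With lactate in normoxia Car9 was also lower, every normoxia-lactate library being under every normoxia-NaCl library (5.53 to 6.63 CPM), where 11.8% of all genes were separated. Its log2 fold change for low oxygen was -0.96 ± 0.53 in NaCl medium (edgeR adjusted p = 0.864) and -0.82 ± 0.38 averaged over media (edgeR adjusted p = 0.327), and it was -0.62 ± 0.25 without hypoxia-lactate 3 (edgeR adjusted p = 0.144). It did not pass in either setting. Egln3, another HIF target, rose in the same libraries by 4.65 ± 0.18 averaged over media (edgeR adjusted p = 2.89e-08). Hvcn1, the voltage-gated proton channel of phagocytes, was abundant at 262 CPM on average. Its log2 fold change for low oxygen averaged over media was -0.65 ± 0.27 (edgeR adjusted p = 0.274; -0.78 ± 0.26 and 0.0871 without hypoxia-lactate 3). It too was chosen after its values were seen.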
